A study of Mus musculus with 2 samples.

Results

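The let-7 genes are the 9 genes named Mirlet7a-1, Mirlet7a-2, Mirlet7b, Mirlet7c-1, Mirlet7c-2, Mirlet7d, Mirlet7f-2, Mirlet7g and Mirlet7i in the GENCODE mouse annotation. They were found by their Ensembl identifiers among the 1973 miRNA genes counted in each library, and all 9 were present. Mirlet7e and Mirlet7f-1 are not analysed here, because the counted identifiers cover their places only on the antisense strand. The samples were neural tubes, the embryonic tissue that gives rise to brain and spinal cord, taken at embryonic day 13.5 from healthy B6NCrl mice. Each of the 2 small RNA libraries came from male and female embryos pooled together, and the labels call them biological replicates. No second condition was measured, so the values describe levels in 1 tissue and their spread over 2 libraries.

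MicroRNAs are short RNAs that pair with messenger RNAs through a seed at their 5′ end and lower the output of their targets. The let-7 family was found in worms as a timing gene, and in vertebrates its mature forms build up as cells leave the stem and progenitor state, where they restrain growth genes such as Lin28, Hmga2, Myc and Ras. The proteins LIN28A and LIN28B bind the loop of let-7 precursors and block their processing, so the level of a mature let-7 need not follow the activity of its gene. In mammals several gene copies, spread over a number of chromosomes, give identical or nearly identical mature let-7 products.

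The mature 5p sequences are shown first, since the counts of these genes depend on how far their products can be told apart. They come from RefSeq on build GRCm38.p6, run 5′ to 3′, and have the seed, bases 2 to 8, in capitals. RefSeq listed no 5p product under Mirlet7a-2, and the let-7a sequence was found in its hairpin.
let-7a-5p (Mirlet7a-1 and Mirlet7a-2): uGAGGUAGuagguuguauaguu
let-7c-5p (Mirlet7c-1 and Mirlet7c-2): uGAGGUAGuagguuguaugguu
let-7f-5p (Mirlet7f-2): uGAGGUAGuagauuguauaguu
let-7b-5p (Mirlet7b): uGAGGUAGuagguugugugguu
let-7d-5p (Mirlet7d): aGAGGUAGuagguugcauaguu
let-7g-5p (Mirlet7g): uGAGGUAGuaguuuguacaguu
let-7i-5p (Mirlet7i): uGAGGUAGuaguuugugcuguu

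All 7 products had the seed GAGGUAG and were 22 bases long. Counted from the 5′ end and with the let-7a base first, let-7c differed from let-7a by A19G alone and let-7f by G12A alone. Let-7b differed by A17G and A19G, let-7d by U1A and U16C, and let-7g by G12U and U18C. Let-7i stood farthest from let-7a, with G12U, A17G, U18C and A19U. Let-7g and let-7i, the products of the 2 most counted genes, had 2 mismatches with each other. Across the annotation, 13 RefSeq miRNA genes had a mature product with this seed, among them Mir98, a let-7 relative that is not one of the 9 genes and whose product differed from let-7a by G11A and A19U.

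The 3p arms separated the gene copies further. They are shown for the 5 genes whose 5p product also lies in another hairpin of GENCODE M21.
let-7a-1-3p (Mirlet7a-1): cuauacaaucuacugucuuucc
let-7c-2-3p (Mirlet7c-2): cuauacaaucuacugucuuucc
let-7a-2-3p (Mirlet7a-2): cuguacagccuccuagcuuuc
let-7c-1-3p (Mirlet7c-1): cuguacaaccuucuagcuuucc
let-7f-2-3p (Mirlet7f-2): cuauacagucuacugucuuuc
The 3p arms of Mirlet7a-1 and Mirlet7c-2 were identical, within a stretch of 26 bases that both hairpins share, although these genes lie on different chromosomes. Mirlet7a-1 and Mirlet7c-2 therefore had no mature arm of their own. Mirlet7a-2, Mirlet7c-1 and Mirlet7f-2 had 1 such arm each, and Mirlet7b, Mirlet7d, Mirlet7g and Mirlet7i had 2. Copies outside miRNA genes were not searched.

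The libraries held 7019469 and 5738209 same-strand counts on miRNA genes. Levels are given as CPM, which are counts scaled so that each of these totals becomes 1000000. Of all reads in the files, 28.5% in replicate 1 and 31.0% in replicate 2 mapped to several places and are in no gene's count, and how many of them were let-7 reads was not measured. The neural tube label was set against marker miRNAs. Mir10a and Mir10b, encoded in Hox clusters, were at 204585 and 155134 CPM on average, the neuronal Mir137 was at 5096 CPM, the oligodendrocyte Mir219a-2 at 2351 CPM and the neural Mir9-3 at 394 CPM. Among markers of other cells, Mir126a of endothelium averaged 16576 CPM, Mir143 of mesenchyme 5406, Mir203 of epithelium 563, Mir206 of skeletal muscle 245, Mir223 of leukocytes 140, Mir122 of liver 74.5, Mir451a of red cells 32.8 and Mir200b of epithelium 14.7. Levels of markers with several gene copies, such as Mir9-3, leave out reads that map to several places, and how many was not measured. Which cells held the let-7 RNAs was not measured, and in whole tissue fewer cells of a type and less RNA per cell cannot be told apart.

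The 9 let-7 genes together held 422443 counts in replicate 1 and 390321 in replicate 2. This was 6.02% of the miRNA counts in replicate 1 (95% Wilson interval 6.001 to 6.036) and 6.80% in replicate 2 (6.78 to 6.82), a mean of 6.41% ± 0.55 (SD, n = 2). The intervals cover counting error only, and the libraries lay farther apart than these intervals. With Mir98 added the share was 6.64% ± 0.57. A minimum of 10 counts in both libraries was reached by all 9 of them, against 18.8% of the 1973 genes. No test of levels was made, because flipping the signs of 2 libraries in an exact two-sided test gives p = 0.5 at the least. Neighbours in the order of levels are called apart here where the higher gene was higher in both libraries and the mean log2 ratio exceeded its SD.

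Abundance, here and below, refers to counted reads, which leave out reads that map to several places. A read of exactly a copied 5p product would fit more than 1 hairpin. In these counts Mirlet7g was the most abundant let-7 gene. It lies on chromosome 9 (106178840 to 106178927, plus strand, GRCm38), in an intron of Wdr82, which encodes a subunit of a histone methyltransferase complex. Mir135a-1 lies outside Wdr82, within 50 kb on the same strand. Mirlet7g had 26816 CPM in replicate 1 and 32094 CPM in replicate 2, a mean of 29455 ± 3732 (SD, n = 2) that ranked 5th of all 1973 genes. Mirlet7i followed, on chromosome 10 (122985640 to 122985724, minus strand), within an exon of the transcribed pseudogene D630033A02Rik and with no other counted miRNA gene within 50 kb on its strand. It had 24383 CPM in replicate 1 and 26693 CPM in replicate 2, a mean of 25538 ± 1633 and rank 7. The ranges of these genes did not overlap, although Mirlet7g in replicate 1 was only just above Mirlet7i in replicate 2. Within each library Mirlet7g was the higher, by log2 ratios of 0.14 and 0.27 (mean 0.20 ± 0.091, or 1.15-fold), and the pair was called apart.

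Mirlet7g and Mirlet7i together made up 85.1% of the let-7 counts in replicate 1 and 86.4% in replicate 2 (mean 85.8% ± 0.95). Mirlet7g alone held 44.6% and 47.2%, and Mirlet7i 40.5% and 39.2%. The share of Mirlet7g was thus higher in replicate 2 and that of Mirlet7i lower, each by more than the 95% Wilson intervals (44.4 to 44.7 against 47.0 to 47.3 for Mirlet7g, and 40.4 to 40.7 against 39.1 to 39.4 for Mirlet7i).

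**Figure D1:**
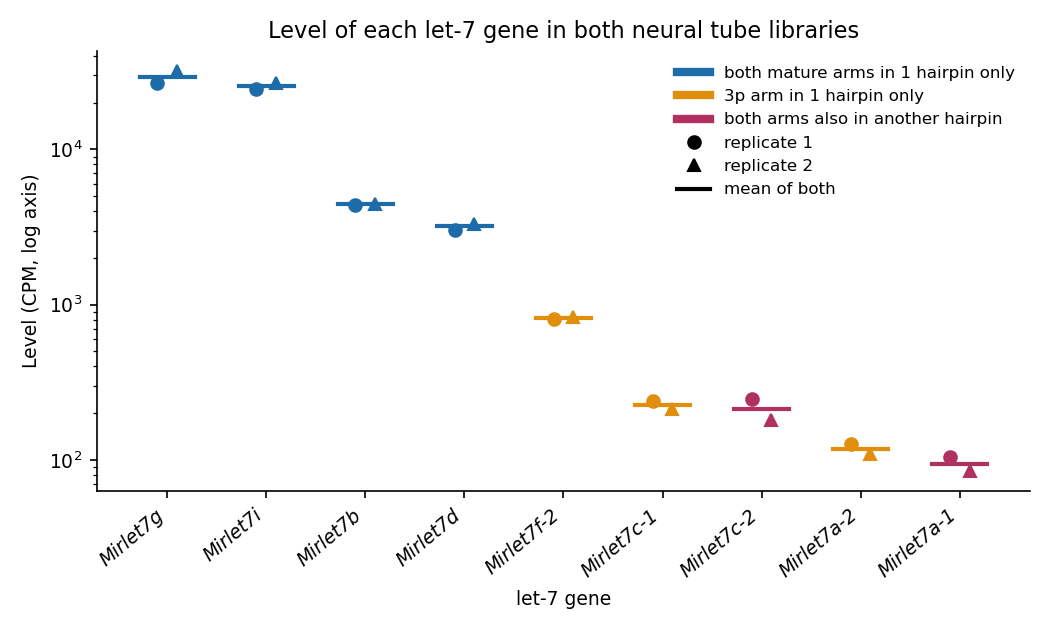
Level of each let-7 gene in CPM on a log axis, with a circle for replicate 1, a triangle for replicate 2, a bar for their mean and colour for the number of mature arms found in a single hairpin. The 4 genes with both arms of their own lie at 3047 CPM or more in each library, and the other 5 lie at 833 CPM or less.

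Mirlet7b and Mirlet7d formed a middle pair. Mirlet7b, on chromosome 15 (85707319 to 85707403, plus strand) in an exon of the long non-coding RNA gene Lncppara, had 4409 CPM in replicate 1 and 4480 CPM in replicate 2, a mean of 4445 ± 50.2 and the smallest spread relative to its level. Mirlet7d, on chromosome 13 (48536012 to 48536114, minus strand) in an exon of the lincRNA 6720427I07Rik, had 3047 and 3333 CPM, a mean of 3190 ± 202. Mirlet7i exceeded Mirlet7b by a log2 ratio of 2.52 ± 0.076, or 5.74-fold, the largest step in the order. Mirlet7b exceeded Mirlet7d by 0.48 ± 0.075, or 1.39-fold, with no overlap between the libraries.

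The genes whose 5p product has another copy were all lower. Mirlet7f-2 led them. It lies on the X chromosome (151912346 to 151912428, plus strand) in an intron of Huwe1, which encodes a ubiquitin ligase. It had 812 CPM in replicate 1 and 833 CPM in replicate 2 (mean 822 ± 14.9), and Mirlet7d exceeded it by a log2 ratio of 1.95 ± 0.065.

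Both let-7c genes came next. Mirlet7c-1, on chromosome 16 (77599657 to 77599750, plus strand) in an intron of the long non-coding RNA gene Mir99ahg, had 238 and 212 CPM (mean 225 ± 18.9). Mirlet7c-2, on chromosome 15 (85706603 to 85706697, plus strand) in an exon of Lncppara, had 245 and 182 CPM (mean 214 ± 44.6). Their order differed between the libraries, with log2 ratios of Mirlet7c-1 to Mirlet7c-2 of -0.04 in replicate 1 and 0.22 in replicate 2. They were the only pair of the 8 neighbour pairs that was not called apart.

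Both let-7a genes were lowest. Mirlet7a-2, on chromosome 9 (41536716 to 41536811, plus strand) in introns of the non-coding genes 3110039I08Rik and Gm49317, had 126 and 109 CPM (mean 118 ± 11.9). Mirlet7a-1, on chromosome 13 (48538179 to 48538272, minus strand) in an exon of 6720427I07Rik, had 104 and 84.9 CPM (mean 94.4 ± 13.5), from 730 and 487 counts. Within each library Mirlet7a-2 was the higher, by log2 ratios of 0.28 and 0.36. From Mirlet7g down to Mirlet7a-1 the levels spanned a log2 ratio of 8.01 in replicate 1 and 8.56 in replicate 2 (mean 8.29 ± 0.39, or 312-fold). The mature arms of the 9 genes are 21 or 22 bases long, so levels were not divided by length. Read lengths were not examined. A read of exactly either mature arm of Mirlet7a-1 or Mirlet7c-2 would also fit another hairpin, so what their counted reads span was not measured. Divided by hairpin length, the order of the 9 genes was the same.

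**Figure D2:**
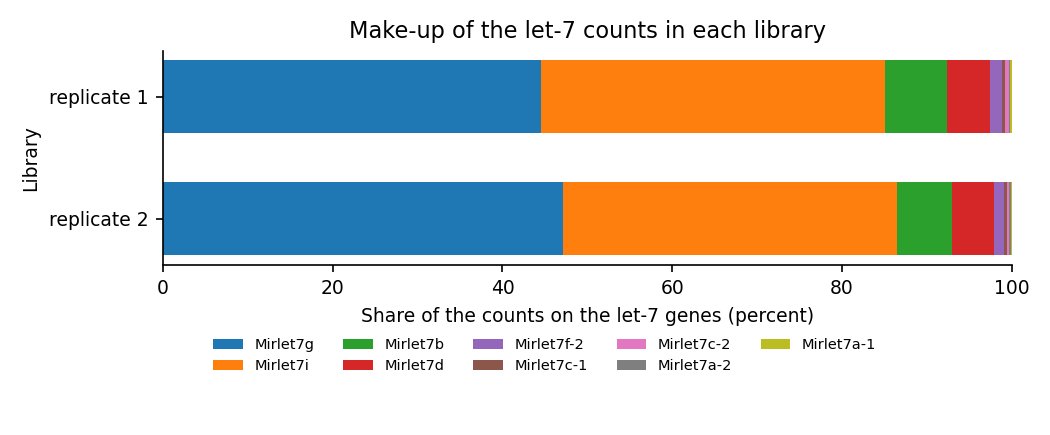
Share of each gene in the summed counts of the 9 let-7 genes, in percent, with 1 bar per library. Mirlet7g and Mirlet7i take 85.1% of the bar in replicate 1 and 86.4% in replicate 2, and the 5 genes with copied 5p products are the narrow bands at the right end.

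Copy number thus separated the family. The 4 genes whose 5p product lies in 1 hairpin held 97.5% of the let-7 counts in replicate 1 and 97.9% in replicate 2. The 5 genes with a copied 5p product held 2.53% and 2.09%. Their median levels were 14991 ± 842 CPM and 210 ± 39.8 CPM, a log2 ratio of 5.92 in replicate 1 and 6.42 in replicate 2 (mean 6.17 ± 0.36). With the counts of gene copies summed, let-7a reached 212 ± 25.4 CPM over 2 genes and let-7c 439 ± 63.5 CPM over 2 genes. Both sums were below let-7d at 3190 CPM, and the log2 ratio of medians was 5.10. Let-7f was counted from Mirlet7f-2 alone. Reads that map to several places are in neither copy's count, so these sums do not give the amount of a mature product. Among the 5 genes, those with a 3p arm of their own ranged from 118 to 822 CPM and those without from 94.4 to 214 CPM, so these ranges overlapped.

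The reads that map to several places, 28.5% and 31.0% of the reads, are missing from every gene's count. Lower output of the copied genes and such missing reads cannot be told apart from these counts. For comparison, the other counted genes with both arms known to RefSeq were sorted in the same way. The median level was 1.39 CPM over 503 genes with 2 arms of their own, 23.9 CPM over 54 genes with 1 and 0 CPM over 17 genes with none. A minimum of 10 counts in both libraries was reached by 235, 37 and 2 of them (46.7%, 68.5% and 11.8%). Among the genes that reached it, the medians were 118, 128 and 206 CPM, the last from 2 genes. The medians over all genes, which include those under the minimum, followed no single order from 2 arms to none. The last class is small, and genes with 1 arm were not split by which arm is copied.

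Members of 1 cluster differed widely in counted level. Such genes lie on the same strand and can be cut from 1 primary transcript. In the Lncppara exon, Mirlet7c-2 and Mirlet7b start 716 bases apart, and the log2 ratio of Mirlet7c-2 to Mirlet7b was -4.17 in replicate 1 and -4.62 in replicate 2. Mirlet7b was thus 21.03-fold higher in counts on average. In 6720427I07Rik, Mirlet7a-1 and Mirlet7d start 2167 bases apart. The log2 ratio of Mirlet7a-1 to Mirlet7d was -4.87 in replicate 1 and -5.29 in replicate 2, so Mirlet7d was 33.9-fold higher. In the Huwe1 intron, Mirlet7f-2 and Mir98 start 868 bases apart. Mir98 had 2252 and 2435 CPM, and the log2 ratio of Mirlet7f-2 to it was -1.51 ± 0.054.

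The other 2 clustered members lie beside miRNAs of the miR-99/100 and miR-125 families. Mir125 genes are the vertebrate relatives of worm lin-4, a timing gene like let-7. Mir99a starts 721 bases from Mirlet7c-1 in the same intron of Mir99ahg and had 120793 and 122659 CPM. The log2 ratio of Mirlet7c-1 to Mir99a was -9.08 ± 0.14, or 542-fold in favour of Mir99a. Mir125b-2, 46616 bases away in Mir99ahg, was at 1029 ± 33.5 CPM, 4.58-fold above Mirlet7c-1. On chromosome 9, Mir100 starts 5291 bases from Mirlet7a-2 and had 38254 and 39965 CPM, 333-fold above it (log2 ratio -8.38 ± 0.19). Mir125b-1, 45210 bases from Mirlet7a-2, was at 837 ± 23.7 CPM, 7.12-fold above it. Mir99b and Mir125a, which lie with Mirlet7e on chromosome 17, were at 16695 ± 444 and 2516 ± 519 CPM.

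In all 7 pairs the let-7 gene with the copied 5p product was the lower in both libraries. All partners except the Mir125b genes have both arms in a single hairpin. Pairs that share Mirlet7a-2 or Mirlet7c-1 are not independent. Both Mir125b genes, whose 5p product is also copied, stood between their let-7 neighbour and the miR-99/100 gene of the cluster. These ratios compare reads, and differences in ligation and in the mapping of copies were not measured.

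**Figure D3:**
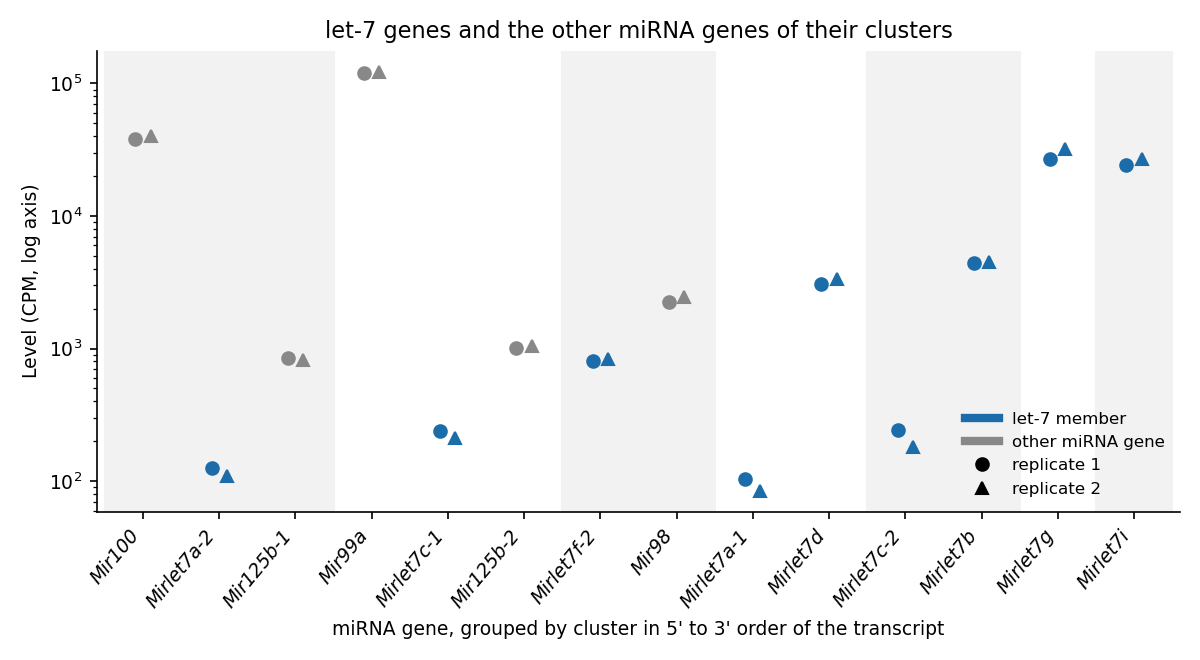
Levels in CPM on a log axis of the let-7 genes (blue) and the other miRNA genes of their clusters (grey), ordered along the transcript, with shading that alternates between clusters, a circle for replicate 1 and a triangle for replicate 2. Mirlet7a-2 and Mirlet7c-1 are the lowest genes of their clusters, while Mir100 and Mir99a lie at 38254 CPM or more, and Mirlet7g and Mirlet7i, drawn singly at the right, have no other counted miRNA gene within 10 kb on their strand.

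All 9 let-7 genes lie inside an annotated gene of the same strand, against 54.5% of the 1894 counted genes that the annotation places. Host type did not order them by level. The 2 genes in introns of protein-coding genes were the highest and the fifth (Mirlet7g in Wdr82, Mirlet7f-2 in Huwe1), at 29455 and 822 CPM. The 4 intronic genes had a median of 524 ± 2.00 CPM and the 5 exonic genes 3190 ± 202 CPM, a log2 ratio of 2.61 ± 0.097. All intronic genes except Mirlet7g have a copied 5p product. Of the exonic genes, Mirlet7a-1 and Mirlet7c-2 have one. This ratio therefore does not separate host class from copy number. Each class held 1 of the 2 most abundant genes, and the classes overlapped from 118 to 25538 CPM. As a share of let-7 counts, exonic genes held 53.5% in replicate 1 and 51.1% in replicate 2.

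Between the libraries none of the 9 let-7 genes differed by more than 0.5 log2 units after TMM scaling. Of 306 genes with at least 100 counts summed over both libraries, 9.48% did. The 306 include genes with fewer counts than any let-7 gene, of which the lowest, Mirlet7a-1, ranked 188 of 1973. The shares are thus not matched for counts, and 9 genes are too few to set none apart from 9.48%. The median log2 difference, replicate 2 minus replicate 1, was -0.01 for the let-7 genes and 0.0054 for all 306, and the median size of the difference was 0.21 and 0.17. Mirlet7g differed by 0.23 (exact 95% interval for counting error 0.22 to 0.24), Mirlet7i by 0.097 (0.087 to 0.11) and Mirlet7d by 0.096 (0.068 to 0.12). These 3 genes were higher in replicate 2.

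The let-7a and let-7c genes lay on the other side. Mirlet7c-2 differed by -0.46 (-0.57 to -0.35), Mirlet7a-1 by -0.33 (-0.50 to -0.16), Mirlet7a-2 by -0.24 (-0.39 to -0.091) and Mirlet7c-1 by -0.21 (-0.31 to -0.098). All 4 let-7a and let-7c genes were therefore lower in replicate 2 by more than counting error, also with total-count scaling (-0.17 to -0.43) and with DESeq2 size factors (-0.20 to -0.45). Mirlet7f-2, whose 5p product is also copied, differed by 0.0036 (-0.052 to 0.059), an interval that spans 0. So did the interval of Mirlet7b, which has no copy, at -0.01 (-0.034 to 0.014), and its sign turned with total-count scaling, where it was 0.023.

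Differences of neighbours in 1 cluster were set beside these. Mirlet7c-2 stood at -0.46 and Mirlet7b at -0.01, and Mirlet7a-1 at -0.33 and Mirlet7d at 0.096. Beside Mirlet7c-1 and Mirlet7a-2, Mir99a differed by -0.011 and Mir100 by 0.030, Mir125b-2 by 0.033 and Mir125b-1 by -0.091 (-0.15 to -0.036). In the cluster of Mirlet7e, Mir99b differed by -0.088 (-0.10 to -0.075) and Mir125a, with both arms in a single hairpin, by -0.46 (-0.49 to -0.43), as much as Mirlet7c-2. The library in which the let-7a and let-7c genes were lower also had the larger share of reads mapping to several places, 31.0% against 28.5%, and the part of this in the result was not tested. With 1 library on each side these differences have no replicate check.

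**Figure D4:**
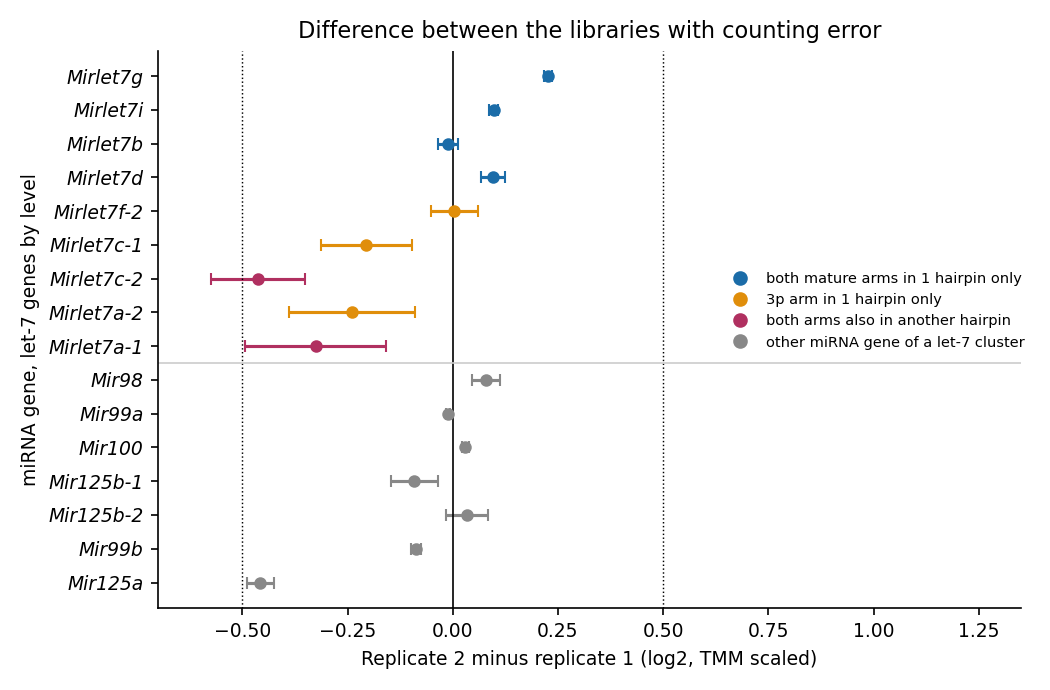
Log2 difference of replicate 2 minus replicate 1 for each let-7 gene, from most to least abundant, and for 7 other genes of let-7 clusters (grey), those of the Mirlet7e cluster included, with let-7 colours for the number of mature arms found in a single hairpin, bars for exact 95% intervals of counting error and dotted lines at 0.5 log2 units either way. Mirlet7g, Mirlet7i and Mirlet7d lie right of 0, the let-7a and let-7c genes lie left of it at -0.21 to -0.46, and the grey genes lie between -0.091 and 0.079 except Mir125a at -0.46.

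The genes nearest to the abundant members in level were found by the distance of their log2 CPM values over the 2 libraries. Mir335, an intronic miRNA of the imprinted gene Mest, was nearest to both Mirlet7i (distance 0.093) and Mirlet7g (0.24), at 23945 CPM in replicate 1 and 28403 CPM in replicate 2. Mirlet7g and Mirlet7i were the next nearest to each other at 0.30. The third was Mir100 for Mirlet7g (0.60) and Mir17 for Mirlet7i (0.59). Nearest to Mirlet7b were Mir30d (0.13), Mir382 (0.14) and Mir130b (0.16), at means of 4248, 4190 and 4219 CPM. With 2 libraries this likeness is mainly one of level.

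The stretch between the mature arms was compared last, since LIN28 proteins bind it. The RNA strand was searched for GGAG, a motif bound by the LIN28 zinc knuckles, and for UGAU, letters bound by the LIN28 cold-shock domain in some precursors. The motifs did not overlap each other. The stretches of the 2 highest genes and of both genes without GGAG are shown, with matches in capitals.
Mirlet7g: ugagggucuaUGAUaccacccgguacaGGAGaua
Mirlet7i: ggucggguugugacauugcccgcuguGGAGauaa
Mirlet7b: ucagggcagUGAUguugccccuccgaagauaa
Mirlet7c-2: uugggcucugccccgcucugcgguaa
GGAG was present in 7 of the 9 let-7 genes, and in 15.6% of the 45 stretches of the same length range, 23 to 34 bases, in other miRNA genes. Only the 9 genes were left out of that comparison set, so relatives such as Mirlet7e and Mirlet7f-1 may be in it. UGAU was present in 2 of the 9, Mirlet7g and Mirlet7b, and in 8.89% of the other stretches. The 2 genes without GGAG, Mirlet7b and Mirlet7c-2, are the pair that shares the Lncppara exon, and they stood at 4445 and 214 CPM. Genes with GGAG ranged from 94.4 to 29455 CPM, so the presence of GGAG did not order the counted levels. Mirlet7g and Mirlet7b, with UGAU, stood at 29455 and 4445 CPM, and Mirlet7i, without it, at 25538 CPM. Reads that map to several places are missing from all these levels.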

How the data were processed

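Small RNA libraries from 2 biological replicates of mouse neural tube were analysed. The authors deposited raw read counts per miRNA gene, made on mm10 with M4 gene models, per the file headers. No aligner is given in the sources used here. Each table has counts for both strands, the same strand and the opposite strand, inferred from the values. Unmapped, multimapping and no-gene reads (17.4%, 28.5% and 2.95% of reads in replicate 1, and 12.2%, 31.0% and 3.10% in replicate 2) were left out of totals. Here, same-strand counts were scaled to their total over 1973 genes.

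Names, hosts and hairpins came from GENCODE M21 (GRCm38, the assembly also called mm10), where 1894 identifiers matched without version. The M4 annotation was not used here. Mature sequences came from RefSeq (GRCm38.p6). A copy is an exact match of a mature sequence in another M21 miRNA locus.

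Replicate differences used a pseudocount of 0.5 and TMM factors (edgeR 4.0.16, R 4.3.3) over genes reaching 10 counts in both libraries, with exact binomial intervals. The log2 differences and their intervals were tested on simulated counts with counting error only, scaled to library totals. TMM scaling and spread between libraries were not part of that simulation. Shares have Wilson intervals, which count reads as independent although molecular identifiers are not stated. Python 3.11.15 and scipy 1.17.1 were used. Alternatives were other totals and scalings (DESeq2 1.42.0 size factors), both strands, other pseudocounts, minimums and windows, and each replicate left out.

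The members and lists were chosen with earlier results of these data known. Named genes were the 9 members, Mir98, the miR-99/100 and miR-125 genes of their clusters, and the 3 genes nearest in level to each of the 3 most abundant members. The planned comparison of genes inside and outside a host was replaced by exon against intron, since all 9 lie inside one. That comparison and the count of unique arms were added after the data were seen.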

Additional observations from a re-analysis of the deposited data

Results flagged for a closer look

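Reads outside the same-strand gene counts were looked at for signal on the let-7 genes. Mirlet7b had 9 opposite-strand counts over both libraries, 6 in replicate 1 and 3 in replicate 2. A count of 0 in 1 library allows 3 counts, which replicate 1 exceeded and replicate 2 did not. Its same-strand counts were 30951 and 25709. Over all genes the opposite strand held 100058 counts in replicate 1 and 85834 in replicate 2. Mirlet7i had 1 opposite-strand count, in replicate 1, and the other 7 genes had 0. The multimapping class, which belongs to no gene, held 3921182 reads in replicate 1 and 3310889 in replicate 2. These exceed the 422443 and 390321 counts on the let-7 genes, and how many of them carry a let-7 sequence was not measured.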

How the results depend on the processing

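The let-7 share of counts depended on the total. It was 8.06% without Mir10a in the total and 3.36% of all reads in the files, while TMM, DESeq2 size factors, both strands and the addition of Mir98 (chosen after seeing the data) kept it within the replicate SD of 6.41%. The level of each of the 9 genes moved by more than its SD under both of these totals, and that of 1 gene with both strands. The log2 ratio of medians of single-copy to copied genes was 5.10 with copies summed, which does not restore reads that map to several places. The median log2 ratio over the 7 cluster pairs was -4.39, and -3.61 with a 50 kb window, which adds Mirlet7g with Mir135a-1. The median difference between libraries turned from -0.01 to 0.023 with total counts. No let-7 gene passed 0.5 log2 units under any scaling, pseudocount, strand or filter tried, but 43.9% of all genes did without a count minimum, in place of 9.48%. With each replicate left out in turn, the share was 6.02% to 6.80%, the Mirlet7g and Mirlet7i part 85.1% to 86.4%, the ratio by copy number 5.92 to 6.42, the span of levels 8.01 to 8.56, the ratio by host 2.54 to 2.67 and the ratio over cluster pairs -4.62 to -4.17. Differences between the libraries cannot be computed with 1 library left out. No paired analysis was possible because there is 1 group. Depth is not limiting for these genes, of which the least counted had 487 counts in a library.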
